A study of Mus musculus with 27 samples.

Results

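Phagocytes kill and digest with a small set of inducible enzymes, and 6 genes for them were followed through injury and repair of the mouse lacrimal gland, out of 43346 genes in the table. They were taken by name: Cybb, Cyba, Ncf1 and Ncf4, which encode subunits of the phagocyte NADPH oxidase, Nos2, which encodes the inducible nitric oxide synthase (iNOS), and Acod1, also known as Irg1, which encodes the enzyme that makes itaconate. The names were chosen with earlier results of these data in view, although no measured value enters the choice. RNA was measured in whole lacrimal glands of wild-type BALB/c mice, 3 mice for each of 9 groups: glands injected with 1 µg IL-1α and taken on each of days 1 to 5 (5 groups), on day 7 or on day 14, saline-injected glands of day 14, and uninjured glands (day 0). The injected cytokine, IL-1α, inflames and injures the gland, which then repairs itself. Ages were 8 to 10 weeks in the sample labels and 10 to 12 weeks in the study's methods. Values are RSEM estimated read counts that the authors scaled with 1 factor per library, called normalized expression here, in 26 libraries. Day 7 replicate 2 was not analysed here. The tests omit replicate 3 of day 2 and replicate 1 of days 4 and 7, as the study did, but the values of these 3 libraries are given beside the others.

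The phagocyte NADPH oxidase passes electrons from NADPH across a membrane to oxygen and so makes superoxide. Its membrane part, flavocytochrome b558, is a pair of gp91phox, the electron-carrying subunit (Cybb), and p22phox, its partner (Cyba). On activation cytosolic subunits, among them p47phox, the organizer (Ncf1), and p40phox, which binds a membrane lipid (Ncf4), move to it together with the small GTPase Rac. Neutrophils carry the whole set, and monocytes and macrophages carry it too. iNOS makes nitric oxide from arginine, and in macrophages its gene is switched on by microbial products and interferon-γ. Acod1 is a mitochondrial enzyme of activated macrophages and neutrophils that decarboxylates cis-aconitate, an intermediate of the tricarboxylic acid cycle, to itaconate, which inhibits succinate dehydrogenase.

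On the GRCm38 assembly Cybb lies on chromosome X (9435252 to 9487771, minus strand) and Cyba on chromosome 8 (122424776 to 122432930, minus strand). Ncf1 lies on chromosome 5 (134220053 to 134229625, minus strand) and Ncf4 on chromosome 15 (78244801 to 78262580, plus strand). Nos2 lies on chromosome 11 (78920787 to 78960254, plus strand) and Acod1 on chromosome 14 (103046977 to 103056573, plus strand). All are protein-coding genes. Cyba overlaps Gm20388 and Ncf1 overlaps Gtf2ird2, both on the opposite strand. The libraries were stranded, but the strand setting of the counting is not given in the sources used here, so reads of those overlaps may have been divided between the genes.

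RefSeq promoter windows of GRCm38.p6, which run from 250 bases before to 50 bases after the start of transcription, were found for 4 of the 6 genes: Cybb, Cyba, Ncf1 and Acod1. The bases before the start, 215 for Acod1 and 250 for the others, are shown because these genes were all up at day 2 while Cybb and Acod1 had fitted changes of opposite sign between days 1 and 2. Capitals mark matches to 5 short motifs searched on both strands: GAGGAA (core of PU.1 sites), TTGCNNAA (C/EBP), GGNNTTTCC (NF-kB), TTCNNNGAA (the GAS element of STAT factors) and GAAANNGAA (core of interferon-stimulated response elements, ISRE). The RefSeq start of Cybb coincides with that of 1 of its 5 annotated transcripts and lies 18.4 kb inside the gene span given above, which reaches to the start of a longer transcript. That of Acod1 lies 35 bases inside its annotated first exon, and these 35 bases are not printed.
Cybb, chrX:9469325-9469574, minus strand: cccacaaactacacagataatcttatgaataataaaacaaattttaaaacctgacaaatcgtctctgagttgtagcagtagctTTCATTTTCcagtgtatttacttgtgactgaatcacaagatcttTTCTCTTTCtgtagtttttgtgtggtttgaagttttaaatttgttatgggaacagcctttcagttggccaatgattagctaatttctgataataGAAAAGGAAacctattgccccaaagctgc
Cyba, chr8:122432941-122433190, minus strand: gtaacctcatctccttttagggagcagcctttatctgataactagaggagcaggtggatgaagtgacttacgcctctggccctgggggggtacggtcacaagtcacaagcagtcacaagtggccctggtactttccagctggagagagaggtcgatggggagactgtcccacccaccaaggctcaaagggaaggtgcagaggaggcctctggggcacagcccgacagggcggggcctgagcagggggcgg
Ncf1, chr5:134229626-134229875, minus strand: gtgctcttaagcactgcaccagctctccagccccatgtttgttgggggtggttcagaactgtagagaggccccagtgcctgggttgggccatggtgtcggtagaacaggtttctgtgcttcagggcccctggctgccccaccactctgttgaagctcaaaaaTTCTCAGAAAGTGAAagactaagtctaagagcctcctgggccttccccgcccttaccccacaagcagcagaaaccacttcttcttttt
Acod1, chr14:103046762-103046976, plus strand: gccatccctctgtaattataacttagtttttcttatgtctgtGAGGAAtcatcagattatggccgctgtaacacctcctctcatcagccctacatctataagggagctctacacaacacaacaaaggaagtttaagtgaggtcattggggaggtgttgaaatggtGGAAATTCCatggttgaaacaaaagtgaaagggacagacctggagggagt
Acod1 held an NF-kB match, GGAAATTCC, whose first base lies 85 bases before the start (position -85), and a PU.1 match at -208. Cybb held 3 ISRE matches, at -167, -123 and -29, and a PU.1 match at 10, after the start. Ncf1 held a GAS match at -88 that overlaps an ISRE match at -82, and Cyba held none of the 5 motifs. Of all 32851 windows of that length, 28.3% hold the PU.1 letters, 10.8% the C/EBP letters, 5.82% the NF-kB letters, 8.3% the GAS letters and 8.56% the ISRE letters. At least 3 ISRE matches occur in 21 windows (0.0639%), a count made after the Cybb matches were seen. A match describes the letters only, and its absence says only that these letters are not in the window.

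Library depth in estimated counts ran between 9.48 M and 13.1 M around a median of 11.0 M, and 1 estimated count was worth 0.602 to 1.75 units of normalized expression. Precision was lowest for the rare transcripts: Acod1 rested on 1 count and Nos2 on 0 counts over the 3 libraries of day 0, while Cybb rested on 157. The intervals and limits given for these counts cover counting error only. The 13762 genes that reached a value of 10 in 2 or more of the 23 libraries kept were tested with limma on log2(value + 1). A call required a 2-fold change or more together with an adjusted p no higher than 0.05. Of the 6 genes, 5 passed that minimum and Nos2 did not. Among the libraries kept, Acod1 reached a value of 10 only at days 1 and 2. Genes near 0 at day 0, in the lists below too, enter the tests only through the days when they are high. Adding 1 makes the fitted folds of rare transcripts too small. All comparisons with day 0 share its 3 libraries. Whole glands were sequenced, so more cells of a type and more RNA per cell cannot be told apart. The defining markers moved widely: the summed level of 10 neutrophil markers was 1991 to 2540 at day 1 against 6.50 to 10.5 at day 0, where Ly6g, Retnlg, Fpr1, Mmp8 and Stfa2l1 were at 0. Markers of the lacrimal acinar cell summed to 22833 to 25669 at day 1 against 128810 to 142525 at day 0. The normalized totals of the libraries ran from 6.56 to 20.1 M, and scaling to equal totals would raise the median gene by 1.17 on the log2 scale at day 1 against day 0 and turn the share of called genes that were up to 98.8%, in place of 68.9%, so every change here is relative to the median gene. At days 2 and 3 against day 0 that shift was 0.89 and 0.68, and for day 2 against day 1 it was -0.28, with 42.2% of called genes up in place of 76.2%.

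**Figure D1:**
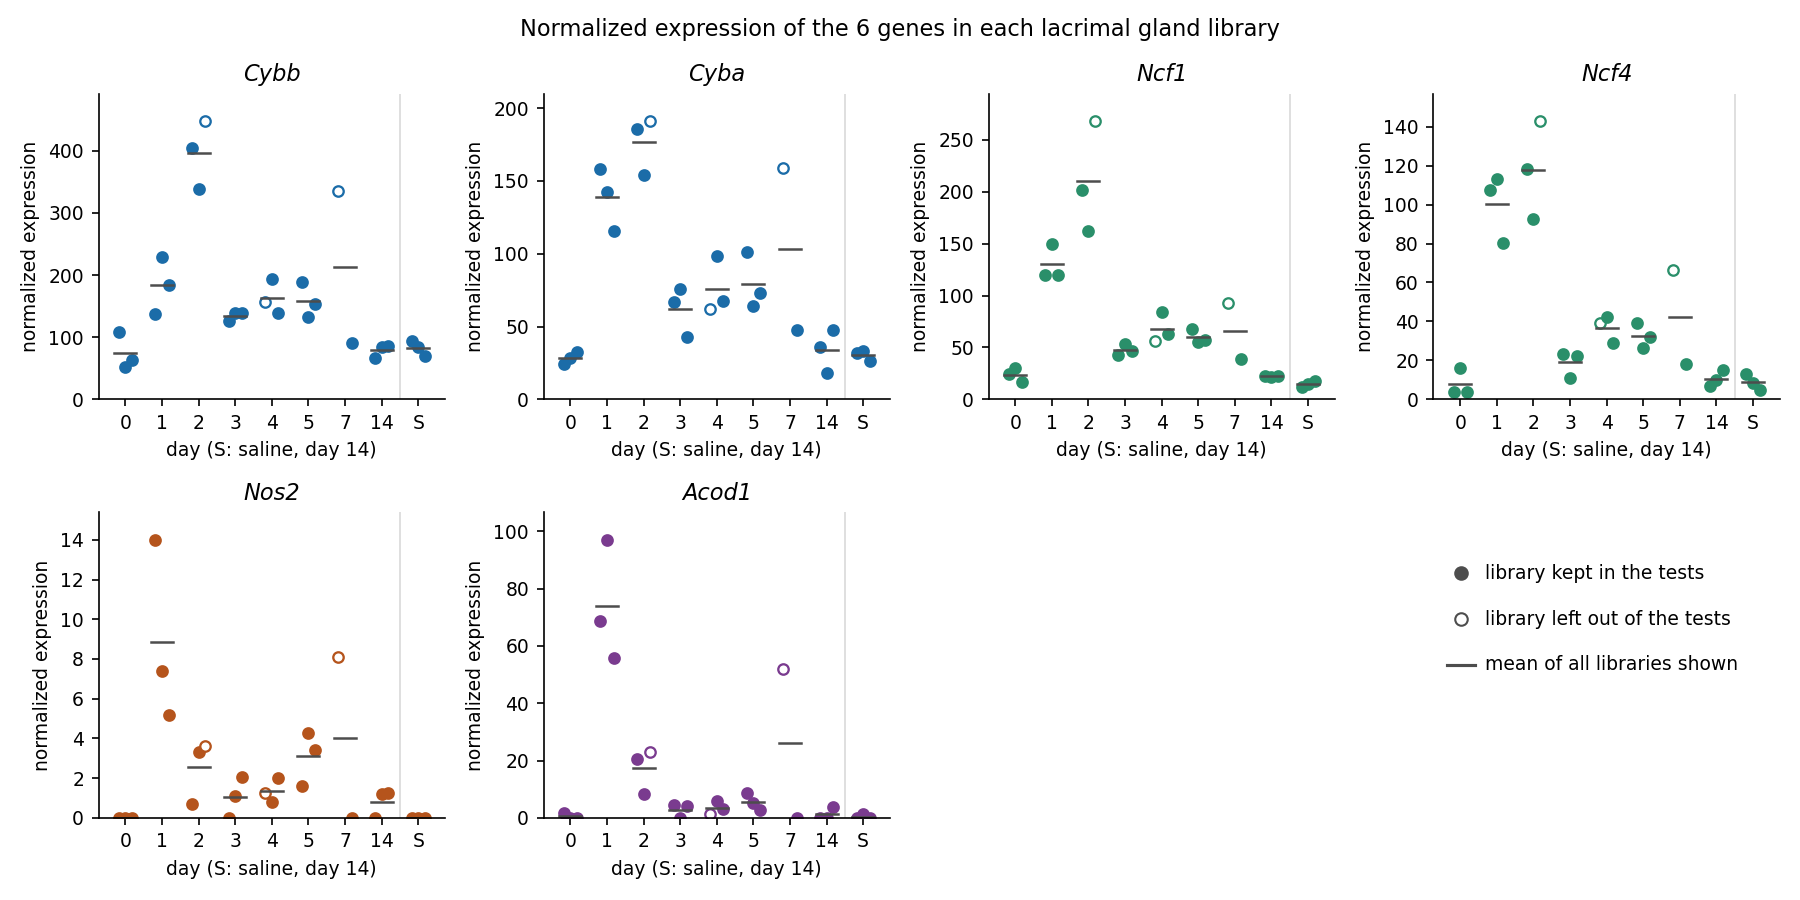
Normalized expression (vertical axes, from 0) of the 6 genes by day after IL-1α, with saline-injected glands of day 14 marked S. Each point is 1 library, open points were left out of the tests, and lines are means of all libraries shown. Acod1 and Nos2 were highest at day 1, the 4 oxidase genes had their highest group mean at day 2, and day 7 replicate 1 lay far above day 7 replicate 3 for every gene.

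Day 1 was compared with day 0 to describe the early inflammatory phase. All 5 tested genes of the 6 rose at day 1, against 11.3% of all 13762 genes that were called up. Acod1 showed the largest change of them and stood at rank 20 among all genes tested by fitted fold change. It had entered the tests only through its high values at days 1 and 2, so its part in this count was favoured by the minimum. Cybb and Cyba had smaller fitted changes than Ncf1 and Ncf4. Nos2 appeared at low levels in every day 1 library and in no library of day 0.

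Cybb (gp91phox) was 138, 230 and 183 in the 3 libraries of day 1 against 109, 52.6 and 63.7 at day 0. Every day 1 library lay above every day 0 library, although the gap between the nearest 2 was small. The mean was 184 ± 45.9 at day 1 and 75.0 ± 29.8 at day 0 (SD, n = 3 each), a log2 fold change of 1.32 with a standard error of 0.22 (limma, Benjamini-Hochberg adjusted p = 5.8e-05). Cyba (p22phox) was 158, 142 and 116 at day 1 against 24.6, 28.6 and 32.5 at day 0. The groups were far apart, and the log2 fold change was 2.24 ± 0.27 (SE, limma adjusted p = 1.2e-06). Ncf1 (p47phox) was 120, 150 and 120 at day 1 against 24.6, 29.7 and 16.9 at day 0, again with no overlap. Its log2 fold change of 2.43 ± 0.20 (SE, limma adjusted p = 6.2e-09) was the most precisely measured of the set.

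Ncf4 (p40phox) was 108, 113 and 80.3 at day 1 against 3.51, 16.0 and 3.90 at day 0. The day 0 libraries rested on 2, 14 and 3 counts, so their spread was wide, but none came near a day 1 library. The log2 fold change was 3.80 ± 0.43 (SE, limma adjusted p = 4.6e-07), the largest among the oxidase genes. The 95% interval of Ncf4 (2.90 to 4.70) lay above those of Cybb (0.86 to 1.78), Cyba (1.67 to 2.81) and Ncf1 (2.02 to 2.85); the difference between genes was not tested.

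Acod1 (itaconate) was 68.7, 97.1 and 56.0 at day 1 against 1.75, 0 and 0 at day 0. The day 1 libraries held 108, 144 and 76 counts and the day 0 libraries a single count in all. By counts the ratio of day 1 to day 0 was 164.5, with an exact 95% interval of 29.3 to 6519 for counting error only. The log2 fold change of log2(value + 1) was 5.70 ± 0.74 (SE, limma adjusted p = 2.5e-06). Nos2 (iNOS) was 14.0, 7.41 and 5.15 at day 1, which is 22, 11 and 7 counts, and 0 in each library of day 0. The observed mean of day 1 was 6.33 times a limit of 3 counts over the day 0 group, a value that leaves out the counting error of day 1. Without the minimum on low values, which left 24767 genes to test, the log2 fold change of Nos2 was 3.20 ± 0.47 (SE, limma adjusted p = 8.7e-05). In that fit 6 of 6 genes were called, beside 2454 of all 24767 called in either direction. Nos2 was lower than Acod1 in each day 1 library. Per kilobase of exon, the mean level at day 1 was 28.2 for Acod1 and 2.01 for Nos2.

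At day 2 against day 0 all 5 tested genes were again up, against 11% of all genes. The group means of the oxidase genes were the highest of the time course, and Acod1 was lower than at day 1 but still above day 0. Cybb was 404 and 339 in the 2 libraries tested at day 2 (447 in the one left out) against 109, 52.6 and 63.7 at day 0, a log2 fold change of 2.36 ± 0.25 (SE, limma adjusted p = 6.8e-07). No other day came near those Cybb values apart from day 7 replicate 1 (336), which was left out. Cyba was 186 and 154 (191 in the library left out) against 24.6, 28.6 and 32.5, a log2 fold change of 2.54 ± 0.31. Ncf1 was 202 and 162 (268 in the library left out) against 24.6, 29.7 and 16.9, a log2 fold change of 2.91 ± 0.22. The fitted change of the organizer subunit gene was thus above those of the membrane subunit genes, a difference that was not tested. Ncf4 was 118 and 92.6 (143 in the library left out) against 3.51, 16.0 and 3.90, a log2 fold change of 3.87 ± 0.48. Adjusted p-values of Cyba, Ncf1 and Ncf4 ran from 1.5e-08 to 5.1e-06 (limma).

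Acod1 at day 2 was 20.7 and 8.34 (22.9 in the library left out) against 1.75, 0 and 0 at day 0. The log2 fold change was 3.34 ± 0.83 (SE, limma adjusted p = 0.0042), and by counts the ratio was 33.2 (exact 95% interval 5.62 to 1345). Without day 2 replicate 1, the higher library, the call was lost (log2 fold change 2.74, limma adjusted p = 0.087). Nos2 was 0.714 and 3.34 (3.61 in the library left out), or 1, 4 and 6 counts, against 0 in each library of day 0. In the fit without the minimum its adjusted p was 0.073 (limma), so a change of Nos2 at day 2 was not called at this depth.

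**Figure D2:**
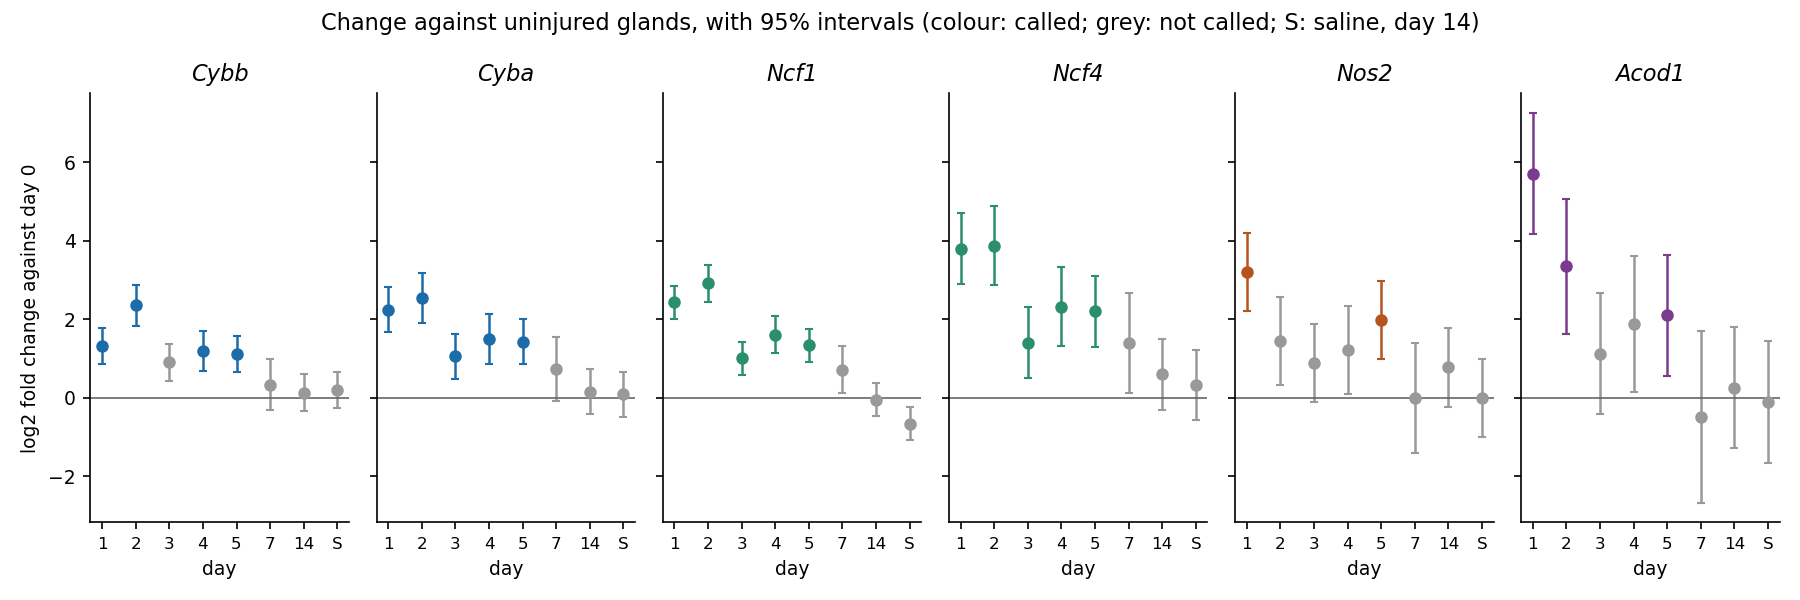
Log2 fold change against day 0 (vertical axis, shared) of each gene by day, with 95% intervals from limma; coloured points were called and grey points were not, and Nos2 comes from the fit without the minimum on low values. Acod1 peaked at day 1 (5.70), Cybb at day 2 (2.36), and every interval of day 14 and saline included 0 except that of Ncf1 in saline-injected glands (-1.07 to -0.24).

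Day 2 was set against day 1 directly, since both share the control. Of the 5 tested genes 1 was called up, Cybb, against 2.02% of all genes, and none was called down. Cybb was 404 and 339 at day 2 (447 in the library left out) against 138, 230 and 183 at day 1, a log2 fold change of 1.04 ± 0.25 (SE, limma adjusted p = 0.012). The 3 libraries of day 2 all lay above those of day 1. The call lies close to the 2-fold threshold and was lost when day 1 replicate 1 (log2 fold change 0.85), day 2 replicate 1 (0.91) or day 2 replicate 2 (1.16, adjusted p = 0.079 by limma) was left out, and on scaling to equal totals (0.76). For Cyba (0.30, 95% interval -0.34 to 0.94), Ncf1 (0.48, 0.01 to 0.95) and Ncf4 (0.08, -0.93 to 1.08) no call was made.

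Acod1 had a fitted change of the opposite sign. It was 20.7 and 8.34 at day 2 (22.9 in the library left out) against 68.7, 97.1 and 56.0 at day 1, so that every day 2 library lay below every day 1 library. The log2 fold change of -2.36 ± 0.83 (SE, 95% interval -4.09 to -0.63) missed the threshold with a limma adjusted p of 0.087. It passed when only the 2 groups were compared (adjusted p = 0.0080) and when libraries were scaled to equal totals (adjusted p = 0.031). Over its alternatives the adjusted p ran from 0.0080 to 0.51. Nos2 had a log2 fold change of -1.75 ± 0.52 without the minimum on low values (limma adjusted p = 0.084), with 0.714, 3.34 and 3.61 at day 2 against 14.0, 7.41 and 5.15 at day 1.

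Between days 2 and 3 the oxidase genes fell together. Day 3 against day 2 gave 4 of the 5 tested genes as down, against 5.81% of all genes. Cybb was 125, 139 and 140 at day 3 against 404 and 339 at day 2, and fell by 1.45 ± 0.25 on the log2 scale (limma adjusted p = 4.5e-04). Cyba was 66.9, 75.6 and 42.8 at day 3 against 186 and 154 at day 2, and its log2 fold change was -1.48 ± 0.31 (limma adjusted p = 0.0023). Both membrane subunit genes were thus more than 2-fold lower, with no overlap between the days. Ncf1 was 42.7, 53.4 and 46.9 against 202 and 162 (log2 fold change -1.91 ± 0.22), and Ncf4 was 23.2, 11.1 and 22.4 against 118 and 92.6 (-2.47 ± 0.48). Acod1 was 4.65, 0 and 4.08 at day 3 against 20.7 and 8.34 at day 2, which was not called (-2.22 ± 0.83, limma adjusted p = 0.077).

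Against day 0, day 3 left 3 of the 5 tested genes called up, against 2.57% of all genes: Cyba (log2 fold change 1.06 ± 0.27), Ncf1 (1.01 ± 0.20) and Ncf4 (1.40 ± 0.43), with limma adjusted p-values of 0.021, 0.0038 and 0.047. All 3 lay near a threshold, and the count was 1 with all 26 libraries, with no minimum on low values and with saline-injected glands as the control, and 0 when only the 2 groups were fitted. Leaving out 1 library gave 1 to 3 calls, with 1 without day 0 replicate 3, day 3 replicate 1 or day 3 replicate 2. Cybb had a log2 fold change of 0.90 (limma adjusted p = 0.015), below 2-fold, and Acod1 1.13 (adjusted p = 0.36). Day 3 replicate 2 had the lowest Ncf4 (11.1) and no count of Acod1 in that group, but the highest Cyba (75.6) and Ncf1 (53.4). It held salivary gland markers at a summed 2179917 against 60452 and 100554 in replicates 1 and 3. The part of these markers in its values was not tested.

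At days 4 and 5 the group means of the oxidase genes lay between those of day 0 and day 1. Day 4 had 4 of the 5 tested genes up, against 6.97% of all genes, and day 5 had all 5, against 9.8% of all genes. Cybb was 194 and 139 at day 4 (157 in the library left out) and 190, 133 and 154 at day 5, with log2 fold changes against day 0 of 1.19 ± 0.25 and 1.12 ± 0.22. Ncf4 was 42.4 and 28.8 at day 4 (39.3 in the library left out) and 39.4, 26.5 and 31.8 at day 5, with log2 fold changes of 2.32 ± 0.48 and 2.20 ± 0.43. It remained the oxidase gene with the largest fitted change. Cyba changed by 1.49 and 1.43 and Ncf1 by 1.61 and 1.34 at days 4 and 5, and the largest limma adjusted p of the 4 oxidase genes on these days was 0.0027. With only the 2 groups compared 2 genes were called at day 4, and without day 4 replicate 2 only 1. At day 5 there were 3 calls without day 0 replicate 2 or day 5 replicate 1, where Cybb (0.91 and 0.99) fell short of 2-fold and Acod1 was not called. Day 4 against day 3 gave none of the 5 genes as changed (limma, 1 with an unadjusted p under 0.05, Ncf1), against 1.3% of all genes.

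Acod1 was 5.70 and 2.98 at day 4 (1.27 in the library left out) and 8.83, 5.14 and 2.58 at day 5. At day 4 it was not called (log2 fold change 1.88, limma adjusted p = 0.12), and at day 5 it was (2.10 ± 0.74, adjusted p = 0.039), although that call was lost under 8 of 14 alternatives, among them each of the fits without day 0 replicate 2, day 0 replicate 3, day 5 replicate 1 or day 5 replicate 2 (adjusted p 0.084 to 0.14). By counts the ratio of day 5 to day 0 was 12.4 (exact 95% interval 1.98 to 513). Nos2 was 1.61, 4.28 and 3.44 at day 5, or 2, 5 and 4 counts. Their observed mean was 2.22 times the limit of 3 counts over day 0, again without the counting error of day 5. Its log2 fold change without the minimum was 1.98 ± 0.47 (limma adjusted p = 0.011).

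At days 7 and 14 and after saline none of the 5 tested genes was called up, against 0.116%, 1.27% and 0.669% of all genes. In either direction 1.66% of all genes were called at day 14 and 0.959% after saline. Nor was any of the 5 tested genes called down on these days or after saline. At an unadjusted p under 0.05 there were 2 of them at day 7 (Ncf1 and Ncf4), 0 at day 14 and 1 in saline-injected glands (Ncf1, lower, log2 fold change -0.66). Cybb was 66.9, 84.1 and 86.0 at day 14 after IL-1α and 93.2, 84.8 and 70.2 at day 14 after saline, in the range of day 0. Acod1 was 0, 0 and 3.74 after IL-1α and 0, 1.23 and 0 after saline. For day 14 against saline none of the 5 was called, against 0% of all genes (682 genes had an unadjusted p under 0.05). Ncf1, at 22.8, 21.9 and 22.4 after IL-1α against 11.5, 14.7 and 17.3 after saline, did not overlap between them, with a log2 fold change of 0.61 ± 0.20 (limma unadjusted p = 0.0063, adjusted p = 0.99).

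Day 7 rests on 1 tested library, replicate 3, with Cybb at 90.4, Ncf4 at 18.1 and no count of Acod1 or Nos2. The library left out, day 7 replicate 1, was unlike it: Cybb 336, Cyba 159, Ncf1 92.5, Ncf4 66.5, Nos2 8.08 (9 counts) and Acod1 52.1 (58 counts). That Acod1 level lay just below the lowest library of day 1 (56.0) and above every library of the other groups. Its neutrophil markers summed to 164 against 23.2 in replicate 3, and its monocyte and macrophage markers to 2975 against 1538. The gland markers also differed: salivary markers summed to 70324 in replicate 1 against 375546 in replicate 3, and acinar markers to 41242 against 89458. The part of these differences in the values was not tested. With all 26 libraries 4 of the 5 genes were called up at day 7, all but Acod1. In that fit 924 of all genes were called in either direction, in place of 26.

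Levels between the genes were compared per kilobase, over the union of annotated exons of each gene. Cyba was the most abundant of the 6 genes in every group mean, at 134 per kilobase at day 1 against 27.5 at day 0, and it made up 41.0 to 64.1% of the summed level of the 4 oxidase genes in single libraries. At day 0 Cybb (12.9) was next, followed by Ncf1 (6.48) and Ncf4 (3.86). At day 1 Ncf4 (49.7) was next after Cyba, ahead of Ncf1 (35.5) and Cybb (31.6), and at day 2 Cybb (68.3) was next again, with ranges that overlapped those of Ncf4 and Ncf1. The ranges of Ncf4 (39.7 to 56.1) and Cybb (23.8 to 39.6) at day 1 did not overlap, while those of Ncf1 and Cybb did. With the length of the principal transcript instead, an alternative chosen after seeing the data, the order of the 6 genes on each of days 0, 1 and 2 was the same.

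Ratios between genes were taken within each library, with 1 added to each value. Acod1 stood at -0.996, -1.24 and -1.69 on the log2 scale relative to Cybb in the day 1 libraries, against -4.22, -5.18 and -4.23 in the 3 libraries of day 2 and -5.32, -5.74 and -6.02 at day 0. With 1 count of Acod1 over the day 0 group, its day 0 ratios rest largely on the 1 added to each value and on Cybb. No library of another group reached the day 1 range, and the nearest was day 7 replicate 1 (-2.67). Ncf4 to Cybb was -0.36, -1.02 and -1.18 at day 1 against -4.61, -1.66 and -3.72 at day 0. At day 2 it had moved to between -1.86 and -1.64, and at day 5 it lay within -2.28 and -2.24. Cyba to Cybb was 0.20, -0.69 and -0.66 at day 1 against -1.23 to -1.12 at day 2, so Cybb was higher relative to Cyba at day 2 than at day 1.

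**Figure D3:**
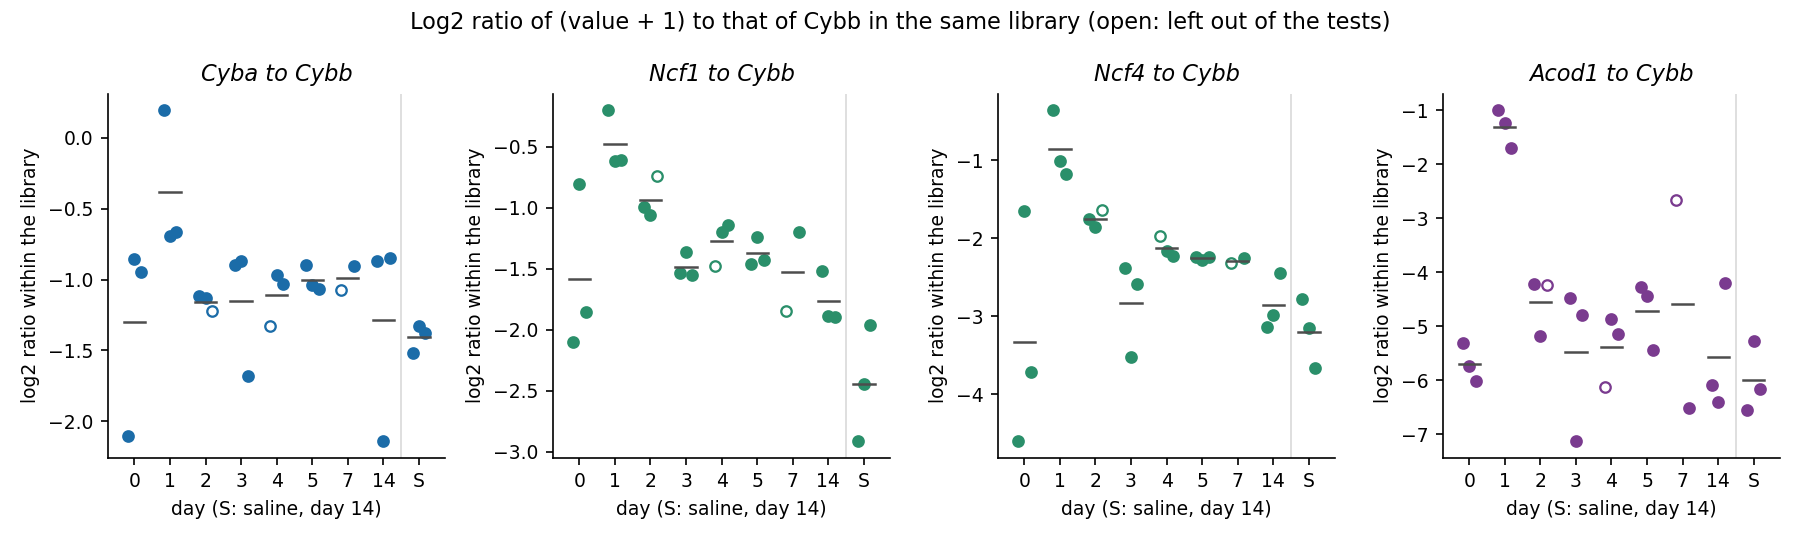
Log2 ratio of Cyba, Ncf1, Ncf4 and Acod1 to Cybb within each library (vertical axes, log2 of value + 1) by day; open points were left out of the tests and lines are means of all libraries shown. The Acod1 ratio of the 3 day 1 libraries (-1.69 to -0.996) lay above that of every other library.

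The genes were set beside markers of the cells that could carry them. Neutrophil markers summed to 736 to 1042 at day 2 against 1991 to 2540 at day 1. None of the 9 tested was called up between these days, against 2.02% of all genes called up. None was called down either, against 87 of 13762 genes (limma, 3 markers with an unadjusted p under 0.05). The middle value of their fitted changes was -1.25 (log2). Monocyte and macrophage markers summed to 4320 to 5891 at day 2 against 2557 to 3288 at day 1, and 4 of the 12 tested were called up, against the same 2.02% (Csf1r, Ms4a7, C1qa and C1qb, log2 fold changes 1.13 to 1.33), as Cybb was. Markers shared by all leukocytes summed to 1334 to 1835 at day 2 against 989 to 1316 at day 1. Across 26 libraries Cybb correlated almost equally with the monocyte and macrophage sum (Pearson r = 0.934, log2 values) and the leukocyte sum (0.928), and less with the neutrophil sum (0.80). Acod1 showed the opposite order, 0.89 with the neutrophil, 0.85 with the leukocyte and 0.77 with the monocyte and macrophage sum. Such correlations share the libraries and the time course and are given as description only. The part of cell numbers in the changes was not tested.

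Relative to the leukocyte sum of the same library the genes differed in profile, a description chosen after seeing the data. Cyba had overlapping ranges on these days, -3.20 to -2.65 at day 1 and -3.26 to -3.05 at day 2 against -3.09 to -2.63 at day 0 (log2). Ncf1 was -3.13 to -3.03 at day 1 and -3.04 to -2.77 at day 2 against -3.54 to -3.03 at day 0, so its ranges met or overlapped too. Cybb was lower relative to leukocyte markers at day 1 (-2.84 to -2.43) than at day 0 (-2.23 to -0.95), with no overlap, and at day 2 (-2.03 to -1.94) it lay within the day 0 range. Acod1 was higher at day 1 (-4.12 to -3.75) than at day 0 (-7.97 to -6.26) and than at day 2 (-7.16 to -6.16), again with no overlap. Its day 0 ratios rest largely on the 1 added to each value, since the group held 1 count of it. Ncf4 was higher at day 1 (-3.61 to -3.20) and day 2 (-3.83 to -3.68) than at day 0 (-5.55 to -3.89). Nos2 was -7.33 to -6.06 at day 1 and -9.82 to -8.27 at day 2 against -7.97 to -7.70 at day 0, where it had no count, so that its day 0 and day 2 ratios rest largely on the 1 added to each value.

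**Figure D4:**
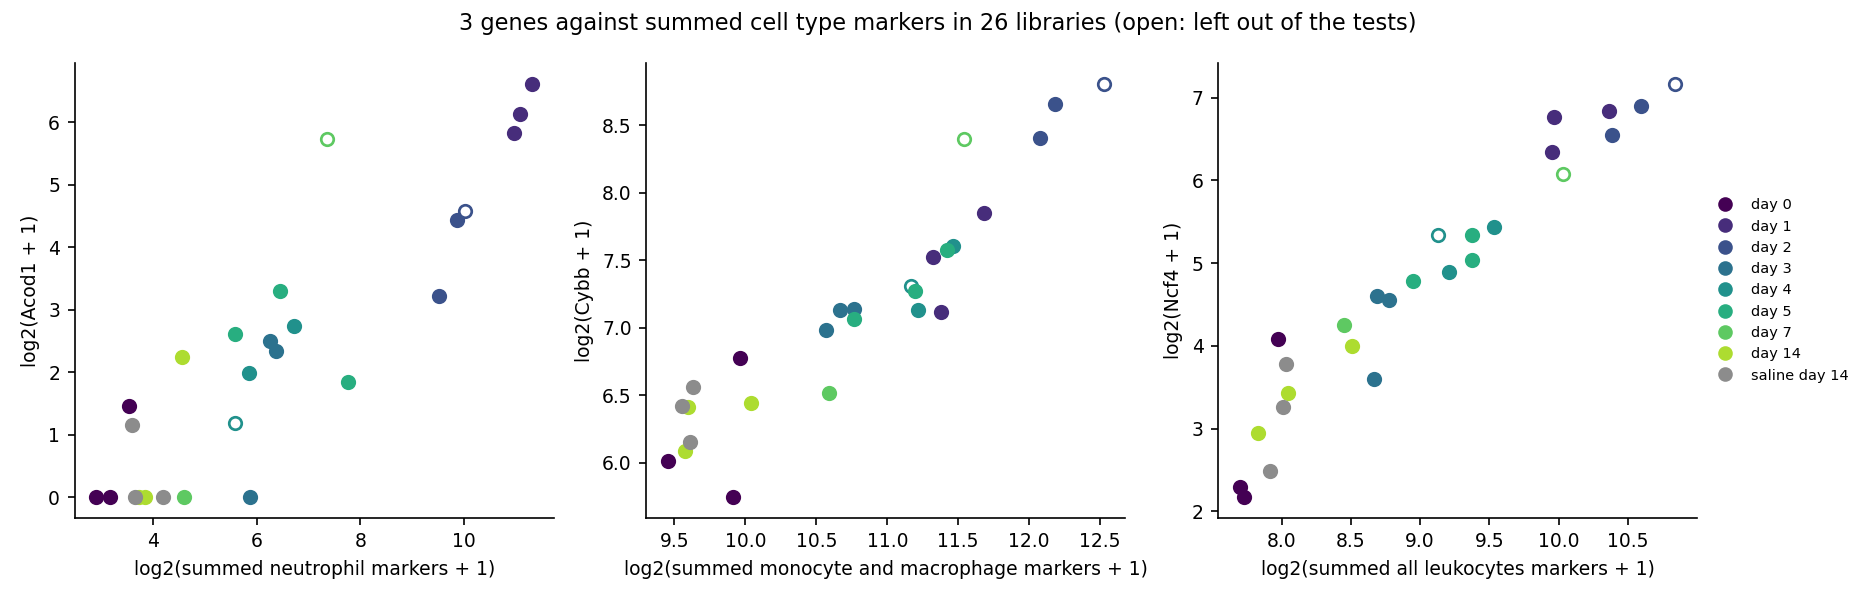
Acod1 against the neutrophil marker sum, Cybb against the monocyte and macrophage sum and Ncf4 against the sum of leukocyte markers (both axes log2 of value + 1), with 1 point per library coloured by group. The day 1 libraries are at the far right for neutrophil markers (1991 to 2540) and the day 2 libraries for monocyte and macrophage markers (4320 to 5891); the open green point high in the left panel is day 7 replicate 1.

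The genes whose pattern over 26 libraries was most like each member, by Pearson r of log2(value + 1), included several known from myeloid cells. For Cybb they were Mpeg1 (0.96), Ctss (0.96) and Gngt2 (0.95), and for Cyba Cd68 (0.98), Cd52 (0.97) and Clec4a1 (0.96). Ncf1 was closest to Lgmn, Clec4a1 and Ctsb (0.97 to 0.98) and Ncf4 to Emp3, Nckap1l and Lcp2 (0.96 to 0.97). Acod1 was closest to Clec4e (0.93), Akr1b8 (0.93) and Anxa1 (0.92), and Nos2 to Ptgs2 (0.87), Osmr (0.85) and Pdpn (0.85), none of which is among the first 3 of an oxidase gene. Ranked by Spearman correlation, Mpeg1, Cd68, Lgmn, Ctsb, Lcp2, Nckap1l and Akr1b8 remained among the first 3 of the same member, while all 3 genes nearest Nos2 were different (Helb, Ccnl1 and Rara). Among the members the closest pair was Cyba and Ncf1 (r = 0.93) and the least alike Cybb and Nos2 (0.62).

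The other genes of these pathways were read from lists written with earlier results of these data known, and the members named here that were not called were chosen after their values were seen. Among 8 partners of the phagocyte oxidase, all tested, 3 rose on each of days 1 and 2, against 11.3% and 11% of all genes called up. Without day 0 replicate 3 the count at day 2 was 5. The list median (log2 fold change) was 0.94 on day 1 and 0.96 on day 2, beside 0.03 and 0.02 over all genes. They were Rac2, the Rac of blood cells (2.72 at day 1), Vav1, an exchange factor for Rac (2.76), and Arhgdib, a regulator of small GTPases in blood cells (2.02). The widely expressed Rac1 (0.46), Rap1a (-0.39), the proton channel gene Hvcn1 (0.32) and Cybc1, whose product the flavocytochrome needs to be made (0.94), stayed below 2-fold. Of 9 genes of other NADPH oxidases 4 were tested. Noxo1, an organizer subunit that serves NOX1, rose at day 1 (1.72) and day 2 (1.29), the second call being lost without day 2 replicate 2 (limma adjusted p = 0.061). Duox1, an epithelial oxidase, fell at day 1 (-1.49), against 5.09% of all genes called down, but was not called on scaling to equal totals or without day 0 replicate 1, day 0 replicate 2, day 1 replicate 2 or day 1 replicate 3 (limma adjusted p 0.061 to 0.12). The difference between these lists was not tested.

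Around iNOS, 16 of 17 genes of nitric oxide and arginine metabolism were tested, and at day 1 2 rose and 3 fell, with a median of 0.11, against 11.3% of all genes called up and 5.09% called down. The share that rose was thus close to that of all genes. Gch1, which makes the first step of the iNOS cofactor tetrahydrobiopterin, changed by 3.34 at day 1 and 2.58 at day 2, and Arg1, an arginase that uses the same substrate as iNOS, by 2.08 and 1.63. The call of Arg1 at day 2 was lost without any 1 of day 0 replicate 2, day 0 replicate 3, day 2 replicate 1 or day 2 replicate 2 (limma adjusted p 0.077 to 0.19). Slc7a1, an arginine transporter (-1.56), Arg2, the mitochondrial arginase (-1.10), and Gchfr, the feedback regulator of Gch1 (-1.09), fell at day 1, although none of the list was down on scaling to equal totals and 1 without day 0 replicate 1 or day 1 replicate 1. Around Acod1, 18 genes of the tricarboxylic acid cycle and of itaconate targets were tested, and 1 rose on both days, below the 11.3% and 11% of all genes. At day 1 the count was 2 without day 0 replicate 3 or day 1 replicate 3. The list medians were -0.17 on day 1 and -0.16 on day 2. That gene was Nfkbiz (2.69 and 2.09), which encodes the NF-kB regulator IκBζ. No listed gene of the cycle itself was called, and the succinate dehydrogenase genes Sdha to Sdhd lay between -0.58 and 0.20 at day 1. By limma adjusted p alone, without the 2-fold condition, 5 genes of the list were up and 6 down at day 1. At day 2 these were 3 up and 7 down.

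Of 20 antioxidant enzymes, 2 rose at day 1, close to the 11.3% of all genes. They were Gpx4, a lipid peroxide reductase (1.67), and Hmox1, heme oxygenase 1 (1.14), whose call was lost without day 1 replicate 1 (0.93). At day 2 0 of 20 were called, against 12.2% of all genes called in either direction. By limma adjusted p alone 1 was up and 3 were down, each by less than 2-fold, and 7 had an unadjusted p under 0.05. Of 11 genes listed as neutrophil granule enzymes, which not all of them are, 4 were tested. Mmp8 (5.40), Mmp9 (3.13) and Lyz2 (1.34) rose at day 1, against 11.3% of all genes. For day 2 against day 1 Lyz2 was called up (1.46), against 2.02% of all genes. Mmp8 (-2.08), Mmp9 (-0.39) and Ltf (0.15) were not called between those days. Mpo, Elane, Ctsg and Prtn3, enzymes of the primary granules, did not pass the minimum, and neither did Camp, Ngp and Padi4. Ltf was tested and not called (0.52). The count of the list that was up at day 1 reached 6 in an alternative that tested more of the list than these 4 genes. It is therefore not set against the 11.3%. Of 17 signals and factors that induce these enzymes 15 were tested, of which 12 rose on day 1 (median 1.72) and 9 on day 2 (median 1.17), against 11.3% and 11% of all genes. Il1b (4.39), Il6 (4.27), Tnf (3.44) and Spi1, the gene of PU.1 (2.92), changed most at day 1. Ifng did not pass the minimum.

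**Figure D5:**
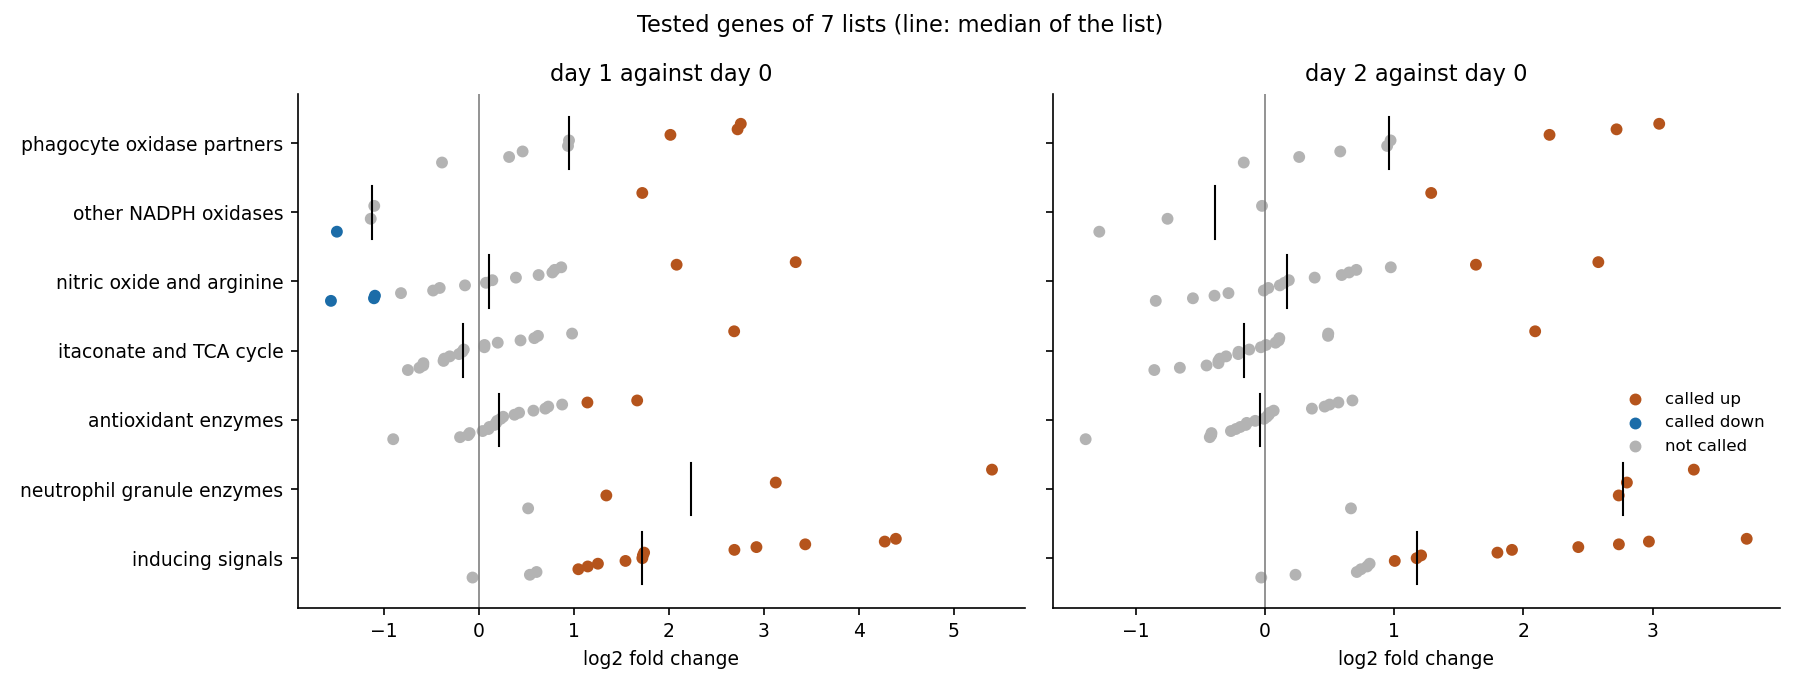
Log2 fold change against day 0 (horizontal axes) of every tested gene of 7 lists at day 1 and day 2, with a line at the median of each list. Among the oxidase partners 3 of 8 were up on both days, while the tricarboxylic acid cycle list lay around 0 with medians of -0.17 and -0.16.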

How the data were processed

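RNA sequencing of whole lacrimal glands was analysed from a deposited table of normalized expression signal per gene, which the authors made with STAR, RSEM and DESeq2 on mm10 (versions not given in the sources used here). Each value is an estimated count divided by 1 factor per library. Since 75.9 to 82.7% of low values lay within 0.01 of whole multiples of 1 count, whole reads were not recovered, and log2(value + 1) was fitted with limma 3.58.1 in R 4.3.3 over 23 libraries of 9 groups (14 residual degrees of freedom, Benjamini-Hochberg adjustment over 13762 genes). Day 7 had 1 library and took its spread from the other groups. Of the 43346 identifiers, 42462 had a name in the annotation. A call required 2-fold or more with an adjusted p no higher than 0.05. The 6 genes and the lists were chosen with earlier results of these data known. Named genes are the 6, up to 4 called genes of a list by size of change and the rarer direction, and the 3 nearest genes of each member. The fit was tested on simulated data, but the outcome is not given here. The alternatives were all 26 libraries, a pseudocount of 0.1, no minimum on low values, a replicate block, only the 2 groups compared, scaling to equal totals, saline as the control, adjusted p alone, and leaving out each library. The length of the principal transcript, values relative to leukocyte markers and the alternatives of Nos2 were chosen after seeing the data. Some genes of the lists are not reported here. Each library is 1 mouse. Promoter windows are from RefSeq, GRCm38.p6.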

Additional observations from a re-analysis of the deposited data

Results flagged for a closer look

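Between consecutive days the tested differences were those of Cybb, with a log2 fold change of 1.04 for day 2 against day 1, and of the oxidase genes for day 3 against day 2, with -1.45 for Cybb, -1.48 for Cyba, -1.91 for Ncf1 and -2.47 for Ncf4 (limma). All 4 genes were lower in each tested day 3 library than in each tested day 2 library.

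The libraries left out of the tests also held these transcripts. Day 2 replicate 3 had Cybb at 447.5, Cyba at 190.9, Ncf1 at 268.0, Ncf4 at 142.7, Nos2 at 3.61 and Acod1 at 22.9, each above the other 2 libraries of day 2. Day 4 replicate 1 had Cybb at 157.4, Cyba at 62.2, Ncf1 at 55.8, Ncf4 at 39.3 and Nos2 at 1.27, above the highest library of day 0 for each, and Acod1 at 1.27, below the highest library of day 0 (1.75). Day 7 replicate 1 had Cybb at 335.9, Cyba at 159.0, Ncf1 at 92.5, Ncf4 at 66.5, Nos2 at 8.08 and Acod1 at 52.1, each above the tested library of day 7. These libraries have no test of their own.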

How the results depend on the processing

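The day 1 calls of Cybb, Cyba, Ncf1, Ncf4 and Acod1 held under all 14 alternatives, and that of Nos2 under 10 of 10. No called change of a member had the opposite sign in any alternative. Of 72 member changes, 18 had values on both sides of 0, none of them called, among them Acod1 at day 7 (-1.40 to 2.38) and Ncf1 at day 14 (-0.26 to 0.61). Of the member fold changes 828 kept their side of the threshold, 43 lost a call and 16 gained one. At day 3 against day 0 the 3 calls became 1 with all 26 libraries, 1 with no minimum on low values, 1 with saline as the control and 0 with only the 2 groups compared. With only the 2 groups compared there were 2 calls at day 4 in place of 4 and 2 for day 2 against day 1 in place of 1, and at day 7 there were 4 with all 26 libraries and 1 with saline as the control in place of 0. The cause was not tested. Leaving out 1 library gave 5 to 5 calls at day 1, 4 to 5 at day 2, 1 to 3 at day 3, 1 to 4 at day 4, 3 to 5 at day 5, 0 to 1 for day 2 against day 1 and 3 to 4 for day 3 against day 2 (3 without day 2 replicate 1, where Cyba had an adjusted p of 0.059), and 0 to 0 elsewhere. The library of day 7 could not be left out.

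Replicate numbers only name separate mice: same-numbered libraries deviated together with r of -0.253 to 0.248 (median 0.001, 45 pairs). With the replicate block the calls at day 3 were 2, Ncf4 having a log2 fold change of 1.40 and an adjusted p of 0.052 (limma), and no other call of a member changed.

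Over all genes, 2255 calls at day 1 became 8426 on scaling to equal totals and 5854 by adjusted p alone, and 1673 at day 2 became 5583 and 4231. At day 3, 433 became 58 with only the 2 groups compared, 2876 on scaling, 286 with saline as the control, 1277 by adjusted p alone and 270 without day 3 replicate 2. At day 7, 26 became 924 with all 26 libraries, 206 with no minimum on low values, 17 with the replicate block and 0 with only the 2 groups compared. In the other comparisons the alternatives that moved the count by over 1.5 times gave 357 to 3770 genes at day 4 (1017 as tested), 3963 to 4473 at day 5 (1429), 0 to 953 at day 14 (229), 6 to 537 in saline-injected glands (132), 95 to 1100 for day 2 against day 1 (365, with 95 without day 2 replicate 2), 392 to 2133 for day 3 against day 2 (911, with 392 without day 2 replicate 1), 23 to 323 for day 4 against day 3 (179) and 2 to 3 for day 14 against saline (0). The counts of list genes called on days 1 and 2 stayed within 1.5 times in 321 cases and moved further in 57. At day 1, scaling to equal totals gave 7 oxidase partners up in place of 3, 8 nitric oxide and arginine genes in place of 2, 10 genes of the tricarboxylic acid cycle list in place of 1 and 18 antioxidant enzymes in place of 2; by adjusted p alone these were 6, 4, 5 and 6. Depth limits Nos2 and, at day 0, Acod1, which rest on a few counts.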
